A study of Mus musculus with 12 samples.

Results

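The expression of 10 autophagy and mitophagy genes was examined in gastrocnemius muscle of 12 mice, 3 in each of 4 groups. The genes were *Ulk1*, *Becn1*, *Atg5*, *Atg7*, *Map1lc3a*, *Map1lc3b*, *Gabarapl1*, *Sqstm1*, *Bnip3* and *Tfeb*, chosen by gene name from the 37748 genes of the count table. All 10 passed the filter on low counts that left 16679 genes to test. The *ACTA1-MCM*/+ mice, used as controls, carried only a transgene in which the human skeletal actin (*ACTA1*) promoter drives MerCreMer, a Cre recombinase of muscle fibers that tamoxifen (TMX) activates. In *FLExD*/+ mice the sole transgene was the conditional *DUX4-fl* construct, which Cre must recombine before DUX4-fl, the transcription factor misexpressed in facioscapulohumeral muscular dystrophy (FSHD), can be made. The labels list no TMX for either group, although they describe the *FLExD*/+ mice as having mild pathology. The moderate and severe models were bi-transgenic, with MerCreMer and the conditional construct together. MerCreMer is not fully silent without TMX, so that some fibers of bi-transgenic mice carried a recombined construct before the injections. The moderate model received 1 intraperitoneal injection of TMX at 5 mg/kg and the severe model 2 injections at 10 mg/kg, and muscles were taken on day 9. All mice were 13 weeks old. Recombination is mosaic, so a muscle holds recombined and unrecombined fibers. The study's list of models includes *ACTA1-MCM*/+ controls given TMX, but its RNA-seq methods name no injection for these mice. By the labels the controls received no TMX, and the severe model received more of it than the moderate model. An effect of the drug and an effect of DUX4-fl therefore cannot be told apart in comparisons with controls or between the models.

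Autophagy delivers portions of cytoplasm and whole organelles to the lysosome. The ULK1 kinase complex starts the process, the Beclin 1 lipid kinase complex marks the membrane, and a conjugation system that includes ATG7 and ATG5 attaches ubiquitin-like proteins of the ATG8 family (LC3 and GABARAP proteins) to the growing autophagosome. Cargo receptors such as p62, the product of *Sqstm1*, bind both cargo and ATG8 proteins, and BNIP3 and PINK1 mark mitochondria for removal, which is termed mitophagy. The transcription factor TFEB activates autophagy and lysosome genes through E-box motifs. In skeletal muscle, autophagy clears damaged mitochondria and protein aggregates, and both too much and too little of it are known to harm fibers. Transcript levels do not measure the flux through the pathway, because LC3 proteins and p62 are themselves degraded in it.

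The letters just upstream of annotated transcript starts are shown first, because the binding core of TFEB and related factors, CACGTG, can be read directly from them. Windows of 250 bases before the transcript start, from RefSeq on GRCm38, were matched for 8 of the 10 genes (10 windows, of which 3 were for *Tfeb*). *Map1lc3a* and *Becn1* had no matching window. Of the 10 windows, 3 belong to starts inside the gene and not at its outer end: that of *Atg7*, which begins 27749 bases into the gene as placed below, and 2 of those of *Tfeb*. CACGTG, a palindrome that reads the same on both strands, was present once each in the windows of *Bnip3*, *Atg7* and *Atg5*, starting 108, 132 and 14 bases before the start, and 6.02% of all 32851 such windows in the genome hold it. The longer motif TCACGTGA was in none of the 10 windows and in 0.785% of all windows. The shorter core ACGTG, searched on both strands and contained in CACGTG, is in 16.6% of all windows. The following windows are written 5′ to 3′ on the strand of the gene, with CACGTG in capitals. They are those of *Bnip3* (chr7:138909507-138909756, minus strand), *Atg7* (chr6:114670846-114671095, plus strand) and *Atg5* (chr10:44268089-44268338, plus strand), which hold the motif, and that of *Sqstm1* (chr11:50210821-50211070, minus strand), the most abundant of the 10 transcripts, which does not. A match describes these letters and is not evidence that a factor binds there.
Bnip3: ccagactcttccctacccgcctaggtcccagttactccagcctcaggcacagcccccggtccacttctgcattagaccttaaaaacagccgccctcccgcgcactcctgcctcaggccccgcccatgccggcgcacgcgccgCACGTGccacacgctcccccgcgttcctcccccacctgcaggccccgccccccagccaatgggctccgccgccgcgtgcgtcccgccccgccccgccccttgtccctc
Atg7: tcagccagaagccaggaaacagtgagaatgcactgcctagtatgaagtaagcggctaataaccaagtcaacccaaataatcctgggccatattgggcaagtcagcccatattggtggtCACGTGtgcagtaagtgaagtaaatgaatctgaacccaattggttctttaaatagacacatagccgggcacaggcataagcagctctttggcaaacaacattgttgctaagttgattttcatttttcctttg
Atg5: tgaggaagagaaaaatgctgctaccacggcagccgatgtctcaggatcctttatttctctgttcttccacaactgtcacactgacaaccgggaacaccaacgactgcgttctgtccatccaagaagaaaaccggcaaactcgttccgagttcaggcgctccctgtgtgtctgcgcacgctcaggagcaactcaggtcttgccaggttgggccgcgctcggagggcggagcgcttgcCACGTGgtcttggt
Sqstm1: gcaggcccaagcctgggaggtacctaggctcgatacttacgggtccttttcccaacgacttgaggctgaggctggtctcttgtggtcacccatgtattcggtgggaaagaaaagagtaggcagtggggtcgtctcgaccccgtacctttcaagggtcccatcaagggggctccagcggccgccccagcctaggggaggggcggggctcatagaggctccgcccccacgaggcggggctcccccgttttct

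Total expected counts ranged from 23796902 to 29136403 per mouse. The 20 genes most abundant in the controls held between 57.7% and 58.5% of the counts there. The same 20 genes held between 30.4% and 33.2% in the severe model. TMM factors, which rescale each library so that most genes do not differ, were therefore between 0.706 and 0.724 in the controls and between 1.69 and 1.87 in the severe model. The choice of scaling matters for every gene below. Without these factors, on library size alone, the median log2 fold change of all 16679 genes was 0.65 in moderate muscle and 1.38 in severe muscle against controls and 0.71 between severe and moderate, whereas with them it was 0.04, 0.08 and 0.02. Values below are CPM (counts relative to the library total) on TMM-scaled library sizes unless stated otherwise, and a fold change therefore describes a gene relative to the bulk of genes. *Wfdc3*, a gene induced by DUX4-fl in mouse muscle, was between 62.6 and 116 CPM in moderate and severe muscle and at most 0.386 CPM in the other groups. *Esr1*, whose hormone-binding part is contained in MerCreMer, was between 422 and 819 CPM in the controls and between 95.9 and 124 CPM in moderate muscle. It was between 35.2 and 37.4 CPM in severe and between 27.5 and 37.9 CPM in *FLExD*/+ muscle. On TMM-scaled library sizes, *Esr1* thus did not separate the severe libraries from those without the MerCreMer transgene.

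Relative to the bulk of genes, most of the 10 transcripts were lower in severe muscle, and none was called higher in either model. In moderate muscle, 3 of the 10 genes were called lower than in controls (*Tfeb*, *Bnip3* and *Ulk1*) and 0 higher, where a call required an adjusted p under 0.05 in edgeR and a change by at least 0.5 on the log2 scale in either direction. Of all genes tested, 17.0% were called lower and 24.4% higher in this comparison. In severe muscle, 7 were called lower (*Tfeb*, *Bnip3*, *Map1lc3a*, *Sqstm1*, *Map1lc3b*, *Gabarapl1* and *Ulk1*) and 0 higher, against 27.9% of all genes lower and 32.9% higher. Between severe and moderate muscle, 5 were called lower (*Map1lc3a*, *Bnip3*, *Tfeb*, *Sqstm1* and *Map1lc3b*) and 0 higher, against 18.8% and 17.6% of all genes, and 7 of the 10 did not overlap, against 61.2% of all genes. The median log2 fold change of the 10 genes was -0.43 in moderate and -1.03 in severe muscle against controls. The group ranges did not overlap for 9 of the 10 genes between moderate and control and for 10 of 10 between severe and control, which was true of 61.0% and 75.0% of all genes. On library size alone, 2 of the 10 genes were called lower and 3 higher in moderate muscle, and 2 lower and 4 higher in severe muscle. Among all 16679 genes, 752 were then lower and 8760 higher in moderate muscle, and 1071 lower and 12575 higher in severe muscle. *Tfeb* and *Bnip3* were called lower in both models under that scaling too.

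**Figure D1:**
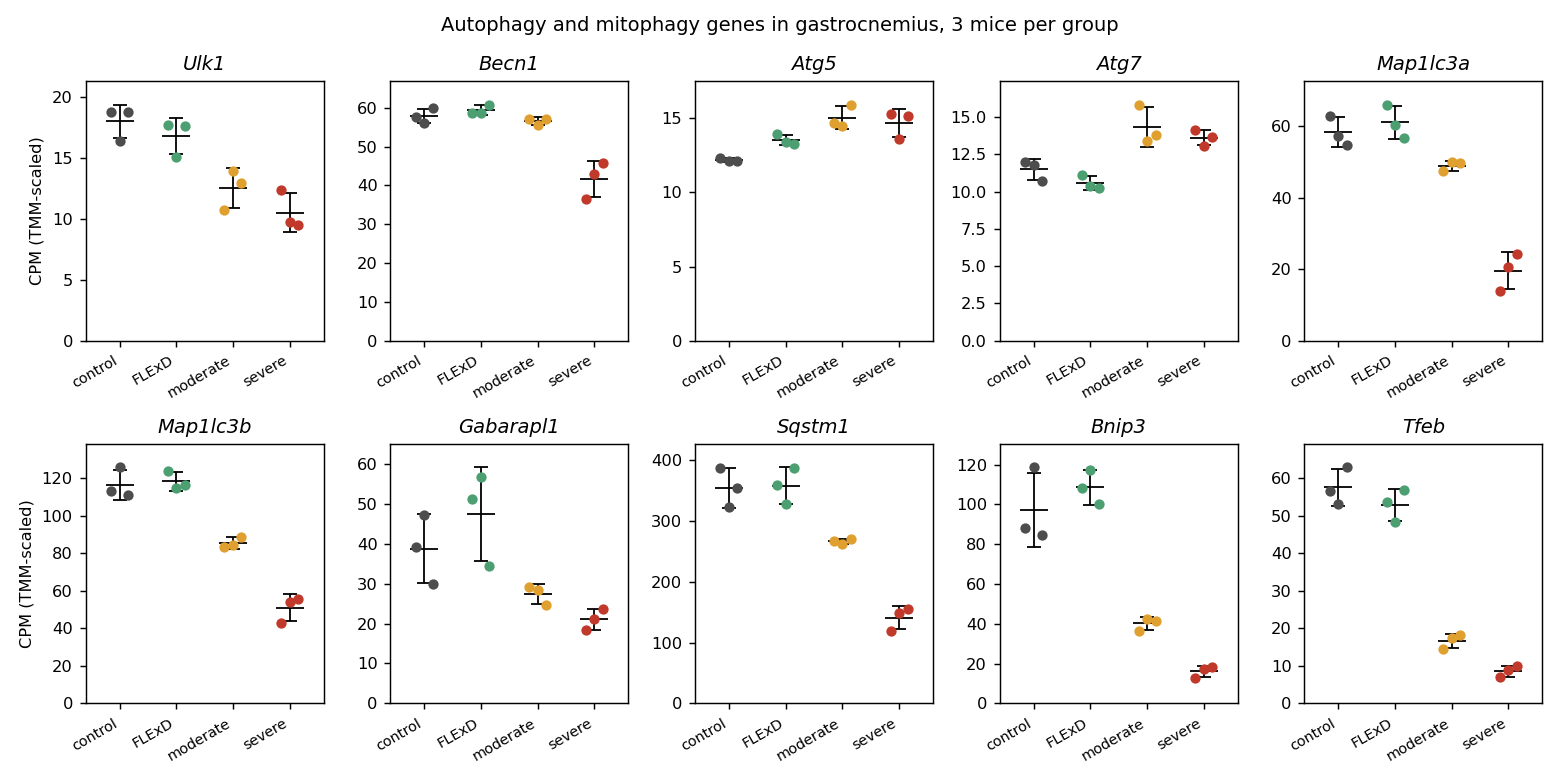
Expression of the 10 genes in each mouse, as CPM on TMM-scaled library sizes (vertical axes start at 0, one panel per gene). Points are mice, the horizontal bar is the mean of 3 mice and the error bar the SD. *Tfeb* and *Bnip3* step down from control to moderate to severe, *Becn1* is lower in severe muscle alone, and *Atg5* and *Atg7* sit slightly above controls in both models.

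*FLExD*/+ muscle gave the background of these measurements, since its *DUX4-fl* transgene was not recombined by Cre. None of the 10 genes was called between *FLExD*/+ and control muscle by edgeR, 0 of 10 had an unadjusted p under 0.05, and DESeq2 also called 0. Of all genes, 0.00600% were called. The 10 log2 fold changes lay between -0.12 and 0.29, and the outermost limits of their 95% confidence intervals were -0.38 and 0.70. *Atg5* alone had ranges that did not overlap, with a log2 fold change of 0.15 ± 0.08 (SE), while 8.54% of all genes did not overlap in this comparison.

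*Ulk1* (chr5:110784488-110810097, minus strand of GRCm38) encodes the kinase that starts autophagosome formation. It was at 18.8, 16.4 and 18.8 CPM in the controls, 17.7, 15.1 and 17.6 CPM in *FLExD*/+, 10.8, 13.9 and 12.96 CPM in moderate and 12.4, 9.76 and 9.47 CPM in severe muscle. Every moderate and severe mouse was below every control, and the moderate and severe mice overlapped. *Ulk1* fell by 0.52 ± 0.13 (SE) on the log2 scale in moderate muscle (edgeR, adjusted p = 0.0030) and by 0.77 ± 0.13 in severe muscle (edgeR, adjusted p = 7.1e-05). The direction depended on the scaling, because on library size alone the log2 fold changes were 0.08 and 0.54. The moderate value was no longer called without moderate mouse 1236 (-0.42), with no filter on low counts (-0.46) or with at least 10 counts required in every library (-0.47). A measure that needs no scaling between libraries is the share of *Ulk1* in the summed TPM (a level per transcript length) of *Ulk1* and its paralog *Ulk2*. This share was 11.6% ± 0.626 (SD, n = 3) in controls, 12.2% ± 1.26 in moderate and 18.6% ± 3.999 in severe muscle, where all 3 mice were above every control. *Ulk2* fell by 1.64 on the log2 scale in severe muscle.

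*Becn1* (chr11:101285952-101302286, minus strand) encodes Beclin 1, a subunit of the lipid kinase complex that marks the forming membrane. It was at 57.7, 56.1 and 59.8 CPM in controls, 58.8, 58.7 and 60.8 CPM in *FLExD*/+, 57.1, 55.6 and 57.2 CPM in moderate and 36.6, 42.9 and 45.7 CPM in severe muscle. Moderate muscle overlapped with controls and severe muscle did not. The log2 fold change was -0.03 in moderate muscle, with a 95% interval from -0.21 to 0.15. In severe muscle it was -0.47 ± 0.08 (SE), which passed the p threshold (edgeR, adjusted p = 1.6e-04) but not the fold threshold, although it passed both without control mouse 1246 (-0.51) or severe mouse 1079 (-0.54). The corresponding values on library size alone were 0.57 and 0.83, so neither a fall nor a rise of *Becn1* holds across scalings. In the annotation, 43.9% of the exonic bases of *Becn1* overlap *Cntd1* on the opposite strand. Library strandedness was not given in the sources used here, and reads from overlapping stretches could not be assigned by strand.

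*Atg7* (chr6:114643097-114860614, plus strand) encodes the enzyme that activates ATG12 and ATG8 proteins for conjugation, and *Atg5* (chr10:44268358-44364291, plus strand) the acceptor of ATG12 in the ligase that attaches ATG8 proteins to lipid. *Atg7* was at 11.97, 11.8 and 10.7 CPM in controls, 11.1, 10.4 and 10.2 CPM in *FLExD*/+, 15.8, 13.4 and 13.8 CPM in moderate and 14.2, 13.1 and 13.6 CPM in severe muscle. *Atg5* was at 12.3, 12.1 and 12.1 CPM in controls, 13.9, 13.4 and 13.3 CPM in *FLExD*/+, 14.7, 14.5 and 15.9 CPM in moderate and 15.3, 13.6 and 15.1 CPM in severe muscle. With TMM factors these were the only 2 of the 10 genes whose log2 fold change was above 0 in both models, and for both every moderate and severe mouse was above every control. For *Atg5* the *FLExD*/+ mice were above every control too, with a log2 fold change of 0.15, and they overlapped with the severe mice. The log2 fold changes of *Atg5* were 0.30 ± 0.08 (SE) in moderate and 0.27 ± 0.08 in severe muscle (edgeR, adjusted p = 0.0069 and 0.0093), and those of *Atg7* were 0.32 ± 0.09 and 0.25 ± 0.09 (edgeR, adjusted p = 0.010 and 0.028). All were below the fold threshold of 0.5. The p threshold was also missed without single mice, where the adjusted p reached 0.060 for *Atg5* in moderate muscle (without moderate mouse 1331) and 0.076 and 0.14 for *Atg7* in moderate and severe muscle (without control mouse 1349), by edgeR. On library size alone both genes passed it in both models, with log2 fold changes of 0.91 and 1.57 for *Atg5* and 0.93 and 1.55 for *Atg7*, and the direction was the same under all 7 scalings tried. Severe and moderate muscle did not differ by the test in *Atg5* (log2 fold change -0.03, 95% interval from -0.21 to 0.14) or *Atg7* (-0.07, from -0.27 to 0.12). The counts behind these values were between 209 and 678 per mouse.

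The 3 ATG8 family members encode the proteins that coat the autophagosome. *Map1lc3a* (chr2:155276297-155278073, plus strand) was at 62.9, 57.3 and 54.9 CPM in controls, 66.1, 60.5 and 56.8 CPM in *FLExD*/+, 47.4, 49.96 and 49.7 CPM in moderate and 13.9, 20.7 and 24.2 CPM in severe muscle. The severe mice were far below all others. *Map1lc3a* fell by 1.58 ± 0.15 (SE) on the log2 scale in severe muscle against controls (edgeR, adjusted p = 4.6e-07) and by 1.32 ± 0.15 against moderate muscle (edgeR, adjusted p = 1.3e-05). In moderate muscle the log2 fold change was -0.25, with a 95% interval from -0.57 to 0.06 (edgeR, adjusted p = 0.17). The severe value kept its sign under all 7 scalings, at -0.28 on library size alone. *Map1lc3a* was also lower in severe than in moderate muscle under each of them.

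*Map1lc3b* (chr8:121590361-121598760, plus strand), which encodes the LC3 protein most often used as an autophagosome marker, was at 113, 126 and 111 CPM in controls, 124, 115 and 116 CPM in *FLExD*/+, 83.1, 84.4 and 88.9 CPM in moderate and 42.8, 54.3 and 55.9 CPM in severe muscle. The control, moderate and severe ranges were fully separate. The log2 fold change was -0.45 ± 0.10 (SE) in moderate muscle, short of the fold threshold (edgeR, adjusted p = 0.0018) but past it without control mouse 1349 (-0.52) or moderate mouse 1331 (-0.51), and in severe muscle *Map1lc3b* fell by 1.19 ± 0.10 (edgeR, adjusted p = 1.1e-07). Both values were slightly above 0 on library size alone, at 0.16 and 0.10. *Gabarapl1* (chr6:129533160-129542346, plus strand), a GABARAP paralog induced by FoxO factors in muscle, had the widest spread between control mice relative to its mean, at 39.2, 47.1 and 29.96 CPM in controls and 51.2, 56.7 and 34.3 CPM in *FLExD*/+. It was at 29.1, 28.5 and 24.6 CPM in moderate and 18.4, 21.2 and 23.7 CPM in severe muscle. It fell by 0.88 ± 0.19 on the log2 scale in severe muscle (edgeR, adjusted p = 0.0011), with a value of 0.42 on library size alone. In moderate muscle its log2 fold change of -0.4995 (edgeR, adjusted p = 0.040) stood just short of the fold threshold, and without control mouse 1349 it was -0.69 and called.

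Shares within the family removed the question of scaling between libraries. In summed TPM of the 5 ATG8 genes measured, *Map1lc3a* made up 27.3% ± 1.44 (SD, n = 3) in controls, 27.1% ± 1.12 in moderate and 17.3% ± 2.23 in severe muscle. *Gabarap*, the remaining gene with no call in CPM, made up 23.2% ± 0.765, 29.1% ± 1.68 and 39.6% ± 3.03, with no overlap between any pair of the 3 groups. *Gabarap* was the largest part of the family in each severe mouse, and *Map1lc3a* or *Map1lc3b* in each control. *Map1lc3b* made up 25.7% ± 1.78, 24.5% ± 0.590 and 21.9% ± 1.59, *Gabarapl2* 16.4% ± 0.867, 13.6% ± 0.851 and 14.0% ± 0.251, and *Gabarapl1* 7.43% ± 1.09, 5.69% ± 0.474 and 7.23% ± 0.484. With 3 mice against 3, an exact two-sided permutation test cannot go below p = 0.1, so these shares are given with their ranges and no test. In CPM, *Gabarap* was between 58.3 and 79.0 in all 9 of these mice, with log2 fold changes of 0.11 in moderate and -0.12 in severe muscle, but of 0.72 and 1.18 on library size alone. *Gabarapl2* fell by 1.16 ± 0.10 (SE) on the log2 scale in severe muscle (edgeR, adjusted p = 8.5e-08), although its value on library size alone was 0.14.

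**Figure D2:**
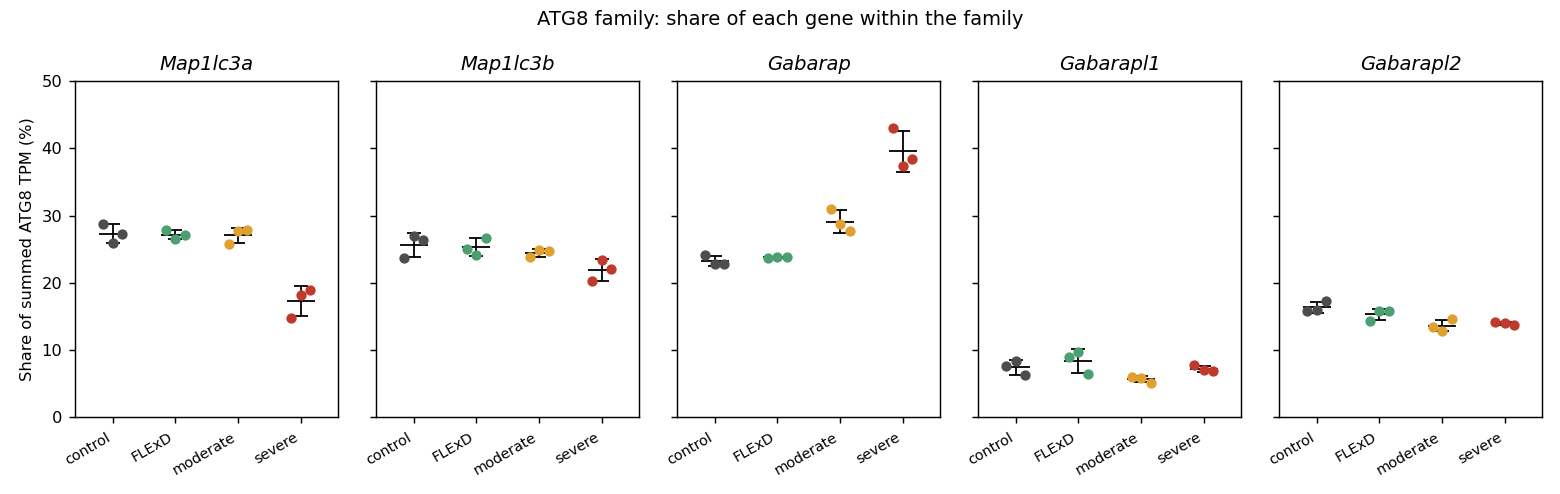
Share of each ATG8 family gene in the summed TPM of the family, in percent (vertical axis), by group. Points are mice, the horizontal bar is the mean of 3 mice and the error bar the SD. The share of *Map1lc3a* is 27.3% in controls and 17.3% in severe muscle, and that of *Gabarap* is 23.2% in controls, 29.1% in moderate and 39.6% in severe muscle.

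*Sqstm1* (chr11:50199366-50210827, minus strand) encodes p62, the receptor that carries ubiquitin-tagged cargo into autophagosomes. It was at 387, 322 and 354 CPM in controls, 359, 327 and 387 CPM in *FLExD*/+, 266, 262 and 271 CPM in moderate and 119, 148 and 155 CPM in severe muscle. The ranges of control, moderate and severe mice were separate. The log2 fold change was -0.41 ± 0.12 (SE) in moderate muscle, short of the fold threshold (edgeR, adjusted p = 0.0084) but past it, at -0.51, without control mouse 1246. *Sqstm1* fell by 1.33 ± 0.12 in severe muscle against controls (edgeR, adjusted p = 1.6e-07) and by 0.92 ± 0.12 against moderate muscle (edgeR, adjusted p = 2.7e-05). On library size alone, the severe value was -0.03 and the moderate value 0.20, so the fall of *Sqstm1* was relative to most other genes and not in its share of all reads. Against *Nbr1*, which encodes a receptor of related structure, the TPM ratio of *Sqstm1* was 6.18 ± 0.545 (SD, n = 3) in controls, 5.01 ± 0.0952 in moderate and 3.87 ± 0.0956 in severe muscle. The mean TPM of *Nbr1* was 28.2, 36.5 and 41.2 in these groups, and that of *Sqstm1* was 174, 183 and 160. The lower ratio thus went with a higher *Nbr1* level in TPM.

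*Bnip3* (chr7:138890836-138909519, minus strand) encodes a receptor on the outer mitochondrial membrane that binds ATG8 proteins and is induced by hypoxia and FoxO3. It was at 88.3, 119 and 84.8 CPM in controls, 108, 117 and 99.95 CPM in *FLExD*/+, 36.5, 42.5 and 41.5 CPM in moderate and 12.97, 17.4 and 18.2 CPM in severe muscle. No moderate mouse reached the lowest control and no severe mouse reached the lowest moderate mouse. *Bnip3* was 2.42-fold lower in moderate muscle (log2 fold change -1.28 ± 0.14, SE, edgeR, adjusted p = 5.2e-06) and 6.01-fold lower in severe muscle (-2.59 ± 0.15, edgeR, adjusted p = 2.7e-09). It fell by 1.31 ± 0.15 on the log2 scale from moderate to severe muscle (edgeR, adjusted p = 1.0e-05). All 3 calls held under all 22 alternatives, with log2 fold changes against controls between -1.40 and -0.67 in moderate and between -2.69 and -1.29 in severe muscle. The paralog *Bnip3l*, which encodes a mitophagy receptor known from red blood cell maturation, was at 67.7, 64.5 and 60.1 CPM in controls, 41.7, 38.0 and 43.6 CPM in moderate and 38.4, 37.2 and 38.4 CPM in severe muscle. It fell by 0.64 ± 0.08 and 0.76 ± 0.08 on the log2 scale (edgeR, adjusted p = 1.0e-05 and 7.8e-07), but its value in severe muscle was 0.55 on library size alone. The TPM ratio of *Bnip3* to *Bnip3l*, which needs no scaling between libraries, was 3.00 ± 0.529 (SD, n = 3) in controls, 3.55 ± 0.372 in *FLExD*/+, 1.80 ± 0.213 in moderate and 0.952 ± 0.120 in severe muscle, with no overlap among control, moderate and severe mice.

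*Tfeb* (chr17:47737030-47792419, plus strand) encodes a transcription factor that switches on autophagy and lysosome genes once mTORC1 no longer holds it in the cytoplasm. With TMM factors it changed most of the 10 genes against controls. In severe muscle this order depended on the scaling, since on library size alone *Atg5* (1.57) and *Atg7* (1.55) changed more in size than *Tfeb* (-1.46), as did *Atg7*, *Atg5* and *Bnip3* in log2(TPM + 1) (1.36, 1.35 and -1.34 against -1.26). Its level was 56.5, 53.2 and 62.9 CPM in controls, 53.6, 48.3 and 56.9 CPM in *FLExD*/+, 14.5, 17.4 and 18.1 CPM in moderate and 6.92, 8.82 and 9.86 CPM in severe muscle. All 3 ranges were separate. *Tfeb* was 3.44-fold lower in moderate muscle (log2 fold change -1.78 ± 0.13, SE, edgeR, adjusted p = 6.8e-08) and 6.75-fold lower in severe muscle (-2.75 ± 0.13, edgeR, adjusted p = 4.0e-10). Both calls held under all 22 alternatives, with values between -1.88 and -1.11 and between -2.87 and -1.26. The further fall of 0.97 ± 0.13 from moderate to severe muscle (edgeR, adjusted p = 3.5e-05) held under 18 of 22, and was -0.15 in log2(TPM + 1).

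The other genes of the MiT/TFE family encode factors that bind the same E-box. The share of *Tfeb* in the summed TPM of *Tfeb*, *Tfe3*, *Mitf* and *Tfec* was 79.0% ± 1.498 (SD, n = 3) in controls and 78.9% ± 1.73 in *FLExD*/+, and 42.9% ± 3.29 in moderate and 30.6% ± 3.99 in severe muscle. *Mitf*, known from melanocytes, osteoclasts and macrophages, made up 12.8% ± 1.18 in controls, 40.4% ± 1.65 in moderate and 35.6% ± 3.05 in severe muscle. *Tfe3*, the closest paralog in function, made up 7.68% ± 0.315, 13.6% ± 1.83 and 23.6% ± 4.36. *Tfec*, which is expressed mainly in macrophages, made up 0.527% ± 0.113, 3.10% ± 0.910 and 10.1% ± 2.31. In CPM, *Mitf* rose by 0.94 ± 0.11 (SE) on the log2 scale in moderate muscle (edgeR, adjusted p = 7.9e-06) and *Tfe3* by 0.83 ± 0.13 in severe muscle (edgeR, adjusted p = 3.9e-05), and both were above 0 under all 7 scalings. The log2 fold change of *Mitf* in severe muscle was 0.34 and that of *Tfe3* in moderate muscle 0.28, both below the fold threshold. From moderate to severe muscle *Mitf* had a log2 fold change of -0.61, but of 0.088 on library size alone. *Tfec* was counted 2, 4 and 2 times in controls, 37, 19 and 46 times in moderate and 156, 107 and 111 times in severe muscle, so that its level in controls rests on very few counts.

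**Figure D3:**
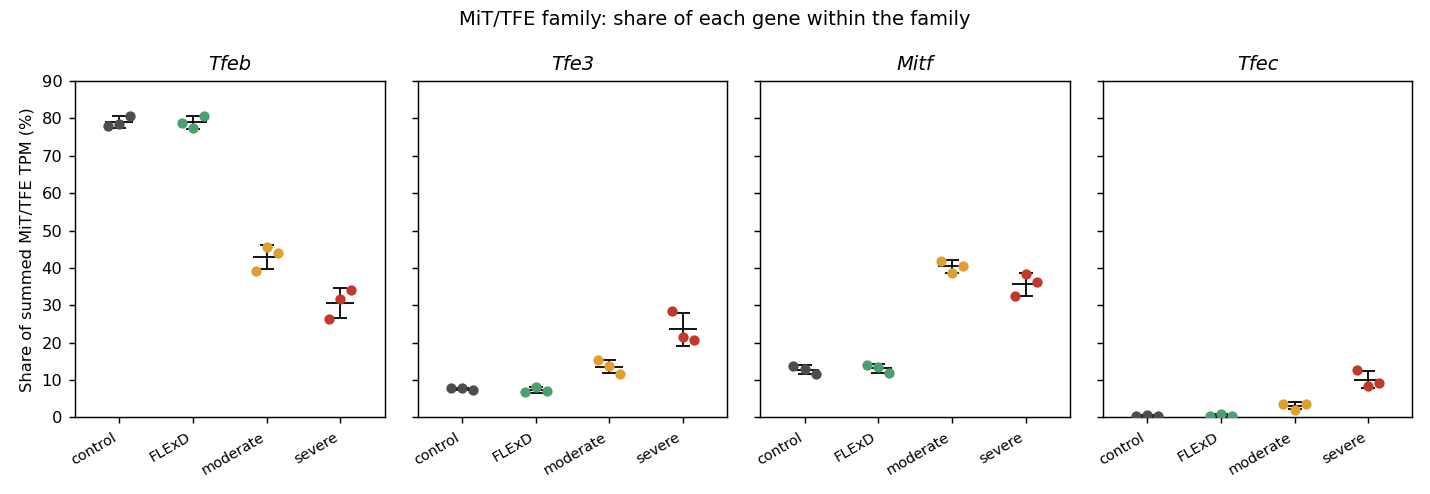
Share of each MiT/TFE gene in the summed TPM of the 4 genes, in percent (vertical axis), by group. Points are mice, the horizontal bar is the mean of 3 mice and the error bar the SD. *Tfeb* is 79.0% of the family in controls, 42.9% in moderate and 30.6% in severe muscle, while *Mitf*, *Tfe3* and *Tfec* hold larger shares in both models than in controls.

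The order of the 10 genes by level also differed between groups. In TPM, *Sqstm1* led in controls at 174 (157 to 188 over 3 mice), followed by *Bnip3* at 110 (97.9 to 132), *Map1lc3a* at 82.7 (80.3 to 87.2) and *Map1lc3b* at 77.8 (71.6 to 83.5). *Becn1* at 32.1 (30.5 to 33.9), *Tfeb* at 27.8 (25.1 to 30.8) and *Gabarapl1* at 22.5 (18.5 to 26.01) came next. *Atg5* at 5.71, *Ulk1* at 3.20 and *Atg7* at 3.01 were lowest. The ranges of *Map1lc3a* and *Map1lc3b*, of *Becn1* and *Tfeb*, of *Tfeb* and *Gabarapl1*, and of *Ulk1* and *Atg7* overlapped. In severe muscle *Sqstm1* still led at 160 TPM (142 to 178). *Bnip3* at 42.8 (36.0 to 48.8) then lay below *Map1lc3b*, *Map1lc3a* and *Becn1*. Its range overlapped with that of *Becn1* at 49.4 (45.1 to 53.7) and, by a narrow margin, with that of *Map1lc3a* at 64.1 (lowest 48.5). *Tfeb* at 11.1 (9.15 to 12.5) lay below *Atg5* at 16.1 (14.9 to 17.3) and overlapped with *Atg7* at 9.28 (8.62 to 9.84).

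**Figure D4:**
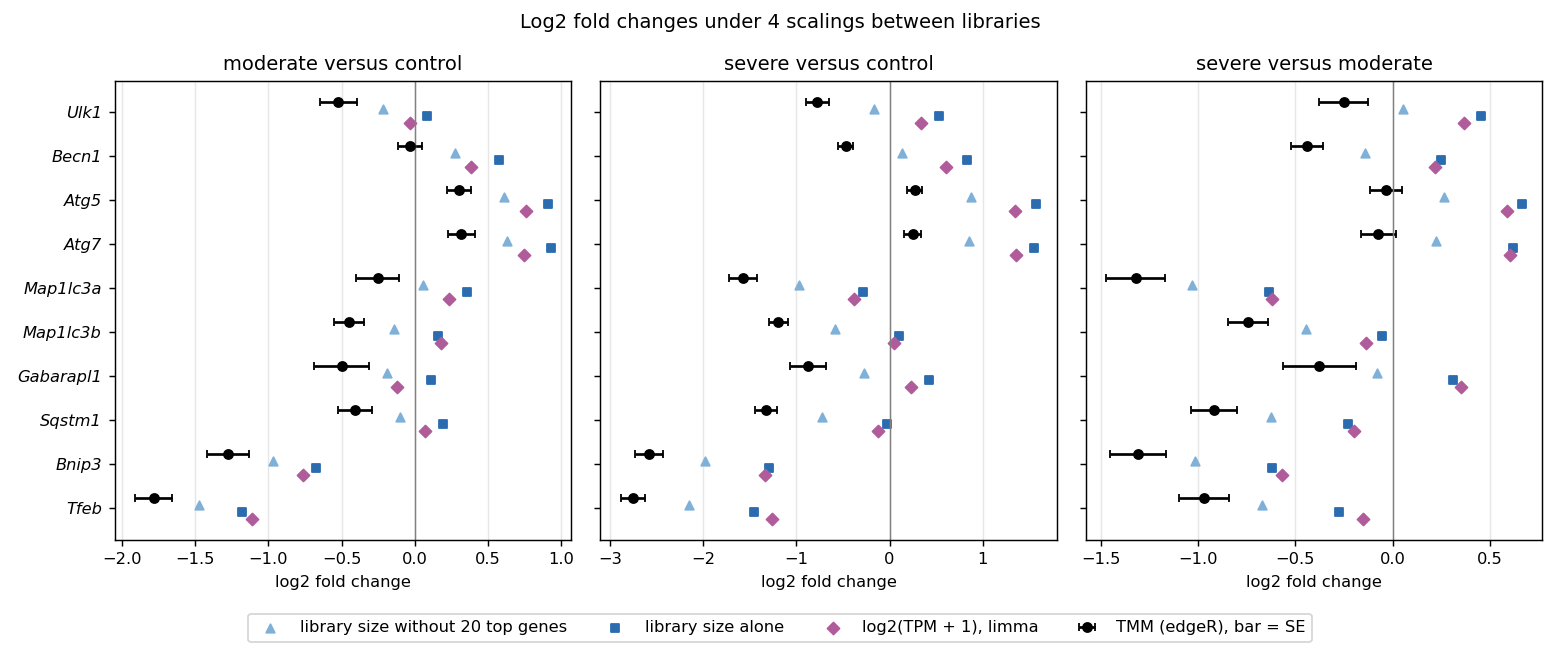
Log2 fold changes of the 10 genes (horizontal axes) in 3 comparisons, each under 4 scalings between libraries. Black circles are the edgeR values with TMM factors and their SE, the other symbols use library size without the 20 most abundant genes, library size alone, and limma on log2(TPM + 1). *Tfeb* and *Bnip3* lie left of 0 under each of the 4 in both models against controls, *Atg5* and *Atg7* lie right of 0, and the severe values of *Becn1*, *Ulk1*, *Gabarapl1* and *Map1lc3b* lie on both sides.

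The cellular makeup of the muscle differed between the groups, and its part in these results was not tested. The summed level of 6 muscle fiber markers was between 122544 and 167642 CPM in controls, between 54786 and 66428 CPM in moderate and between 7965 and 14520 CPM in severe muscle, with 5 of 6 and 6 of 6 markers called lower. This sum was 39.99% of the control mean in moderate and 8.07% in severe muscle. Beside it, the levels in severe muscle were 14.8% of the control mean for *Tfeb*, 16.7% for *Bnip3*, 33.6% for *Map1lc3a*, 39.8% for *Sqstm1*, 72.1% for *Becn1* and 121% for *Atg5*. In moderate muscle *Tfeb* was at 29.0% and *Bnip3* at 41.3% of the control mean. Markers of macrophages were called higher for 6 of 6 genes in both models, and their sum was between 59.6 and 74.2 CPM in controls, between 344 and 437 CPM in moderate and between 750 and 857 CPM in severe muscle. The sums of fibroblast markers (626 to 1544, 2303 to 2426 and 3825 to 4948 CPM) and satellite cell markers (18.3 to 22.2, 29.6 to 40.04 and 65.9 to 74.8 CPM) were also higher, with 4 of 6 and 3 of 5 genes called higher in moderate and 4 of 6 and 4 of 5 in severe muscle. The fibroblast marker *Dcn*, which encodes the matrix proteoglycan decorin, went the other way, with a log2 fold change of -0.79 in severe muscle (edgeR, adjusted p = 2.9e-05). The sum of endothelial markers was lower (171 to 186, 114 to 150 and 88.7 to 101 CPM), with 2 of 6 and 5 of 6 called lower. No marker was at 0 counts in every control. In bulk muscle, fewer cells of a type and less RNA per cell cannot be told apart. The mouse with the lowest fiber marker sum of its group had the lowest value of 5 of the 10 genes in each of the control, *FLExD*/+ and moderate groups and of 7 in the severe group (mouse 1047). In the control group that mouse had the highest *Map1lc3b*, *Gabarapl1* and *Bnip3*, and in the *FLExD*/+ group the highest *Gabarapl1* and *Bnip3*. The corresponding mouse had the highest *Gabarapl1* and *Atg7* in the moderate group and the highest *Ulk1*, *Atg5* and *Atg7* in the severe group. These counts are a description only and were not tested, since the genes of a library share its scaling factor.

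Of 65 other autophagy pathway genes in 10 groups by role, all of which were tested, 8 were called higher and 14 lower in moderate muscle and 11 higher and 25 lower in severe muscle. This is 33.8% and 55.4% called in either direction, against 41.4% and 60.7% of all genes. By direction, 24.4% of all genes were higher and 17.0% lower in moderate muscle, and 32.9% higher and 27.9% lower in severe muscle. Between severe and moderate muscle 5 were higher and 19 lower, or 36.9% against 36.5% of all genes, of which 17.6% were higher and 18.8% lower. In *FLExD*/+ muscle edgeR and DESeq2 called 0, and 1 gene had an unadjusted p under 0.05. The median log2 fold change of the 65 genes was -0.15 in moderate and -0.34 in severe muscle, beside 0.04 and 0.08 for all genes. On library size alone the split turned to 28 higher and 4 lower in moderate and 48 higher and 5 lower in severe muscle. Among all 16679 genes that scaling gave 8760 higher and 752 lower in moderate and 12575 higher and 1071 lower in severe muscle.

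Of 6 other mitophagy genes, 2 were called lower in moderate and 4 in severe muscle, and 0 were called higher, where 17.0% and 27.9% of all genes were lower and 24.4% and 32.9% higher. With library size as the scaling, 1 was lower in each model, and 1 was higher in moderate and 4 in severe muscle. Among all 16679 genes, 752 and 1071 were then lower and 8760 and 12575 higher in moderate and severe muscle. *Pink1*, which encodes the kinase that marks damaged mitochondria, was at 888, 807 and 767 CPM in controls, 244, 242 and 232 CPM in moderate and 63.3, 88.9 and 102 CPM in severe muscle. It was 3.42-fold lower in moderate (edgeR, adjusted p = 2.7e-07) and 9.69-fold lower in severe muscle (edgeR, adjusted p = 4.0e-10), and was below 0 under all 7 scalings.

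Among cargo receptors, 2 of 6 were called lower in moderate muscle and 3 lower and 1 higher in severe muscle, beside the same shares of all genes (17.0% lower in moderate, 27.9% lower and 32.9% higher in severe muscle). Scaled by library size alone, 1 was lower in each model, and 2 were higher in moderate and 4 in severe muscle. Among all 16679 genes, 752 and 1071 were then lower and 8760 and 12575 higher in moderate and severe muscle. *Optn*, which encodes the mitophagy receptor optineurin, went from 67.1, 69.1 and 63.2 CPM in controls to 29.0, 29.1 and 29.8 CPM in moderate and 8.84, 12.6 and 12.6 CPM in severe muscle, which is 2.27-fold and 5.85-fold lower (edgeR, adjusted p = 9.7e-07 and 3.3e-10). *Wdfy3*, which encodes a scaffold for the clearance of aggregates, rose by 0.61 ± 0.13 (SE) on the log2 scale from moderate to severe muscle (edgeR, adjusted p = 0.0013), from 46.1, 57.0 and 54.2 CPM to 99.98, 71.7 and 68.1 CPM.

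The genes for the early steps held changes in both directions. *Atg9a*, which encodes a lipid scramblase of the vesicles that seed the autophagosome, was between 78.8 and 85.1 CPM in controls, 31.4 and 36.6 CPM in moderate and 14.5 and 17.6 CPM in severe muscle, 2.40-fold lower in moderate muscle (edgeR, adjusted p = 8.6e-08). *Atg9b*, its paralog, was below 1 CPM in every mouse of these groups, at 5.49, 2.26 and 4.60 expected counts in controls, 7.78, 5.30 and 10.5 in moderate and 31.9, 22.3 and 22.7 in severe muscle. It passed the filter on low counts through the severe mice, and its fitted log2 fold change of 1.59 ± 0.40 (SE) in severe muscle (edgeR, adjusted p = 0.0028) rests on very few counts in controls and was 0.36 in log2(TPM + 1). *Uvrag*, which encodes a Beclin 1 partner, was at 12.4, 15.4 and 14.5 CPM in controls, 39.0, 34.2 and 39.8 CPM in moderate and 33.0, 36.9 and 35.5 CPM in severe muscle, and rose by 1.42 ± 0.10 and 1.32 ± 0.10 (edgeR, adjusted p = 4.6e-08 and 2.0e-08). *Atg3*, which encodes the enzyme that passes ATG8 proteins to lipid, was at 13.4, 13.5 and 13.1 CPM in controls, 36.1, 31.3 and 35.5 CPM in moderate and 31.5, 38.5 and 40.9 CPM in severe muscle. It was 2.57-fold higher in moderate and 2.77-fold higher in severe muscle (edgeR, adjusted p = 1.2e-07 and 1.3e-08). Among the 9 other conjugation genes, *Atg3* was the 1 called higher in each model, while 1 was called lower in moderate and 3 in severe muscle. Over all genes, 24.4% and 32.9% were called higher and 17.0% and 27.9% lower. This split depended on the scaling, since on library size alone 4 of the 9 were higher in moderate and 6 in severe muscle, and 0 lower. Among all 16679 genes, 8760 and 12575 were then higher and 752 and 1071 lower in moderate and severe muscle. *Uvrag* and *Atg3* were above 0 against controls under all 7 scalings.

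Of 12 regulators that act through mTORC1, Rag GTPases and AMPK, 2 were called higher and 2 lower in moderate muscle and 3 higher and 4 lower in severe muscle. This is 33.3% and 58.3% of the 12, no more than the 41.4% and 60.7% of all genes. The counts were 6 higher and 1 lower in moderate and 9 higher and 2 lower in severe muscle on library size alone. Among all 16679 genes, 8760 and 12575 were then higher and 752 and 1071 lower in moderate and severe muscle. *Rragd*, which encodes the RagD GTPase that brings TFEB to the lysosome for phosphorylation, was at 418, 349 and 413 CPM in controls, 92.8, 100 and 114 CPM in moderate and 26.01, 32.7 and 35.7 CPM in severe muscle, 3.84-fold and 12.5-fold lower (edgeR, adjusted p = 4.7e-08 and 8.8e-11). *Prkaa2*, the AMPK catalytic subunit prevalent in muscle, was between 312 and 359 CPM in controls, 155 and 200 CPM in moderate and 47.2 and 76.6 CPM in severe muscle, 5.15-fold lower in severe muscle (edgeR, adjusted p = 1.2e-08). *Fnip2*, which encodes a folliculin partner that acts on RagC and RagD, was between 6.87 and 9.46 CPM in controls, 24.6 and 27.3 CPM in moderate and 37.3 and 42.7 CPM in severe muscle, 3.15-fold and 4.81-fold higher (edgeR, adjusted p = 4.7e-08 and 5.7e-10). All of these directions held under all 7 scalings.

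**Figure D5:**
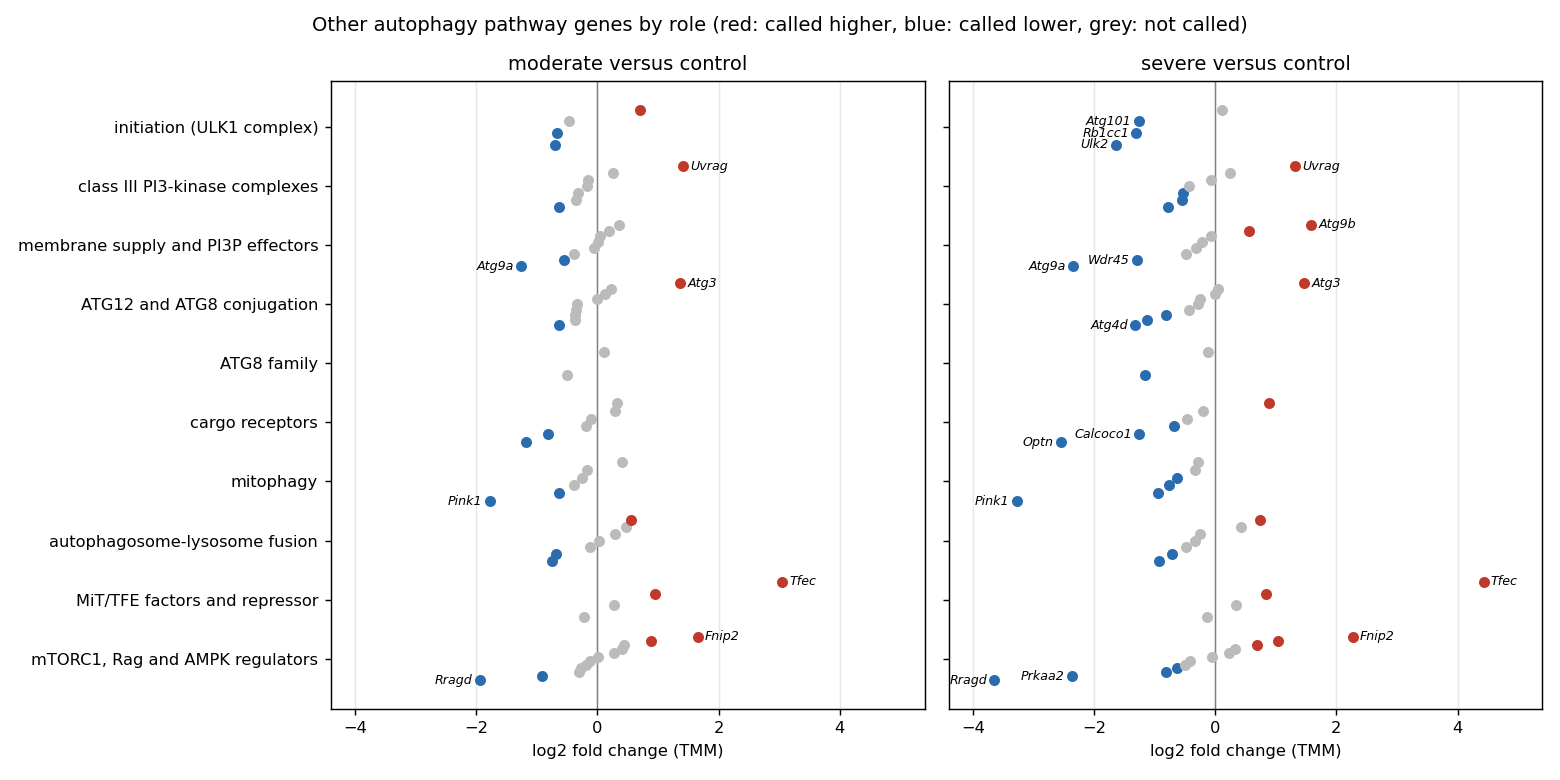
Log2 fold changes of 65 other autophagy pathway genes (horizontal axes, edgeR with TMM factors) by role, in moderate and severe muscle against controls. Each point is a gene, coloured by call, and called genes that changed by at least 1.2 are named. *Pink1*, *Rragd*, *Optn* and *Atg9a* lie far to the left in severe muscle, and *Tfec*, *Fnip2*, *Atg3* and *Uvrag* to the right in both models.

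Across the 12 mice, the genes outside the lists with a profile most like that of *Sqstm1* were *9630033F20Rik*, *Chd1l*, *Pfkm*, *Lsm12* and *Dusp23*, with Pearson r of log2 CPM between 0.995 and 0.996 among 10374 candidates. *Pfkm*, which encodes muscle phosphofructokinase, averaged 3395 CPM in controls, 1748 CPM in moderate and 459 CPM in severe muscle. For *Bnip3* they were *Coq5*, *Pttg1*, *Sod2*, *Sdha* and *Plk1s1*, with r between 0.996 and 0.997. Of these, *Coq5*, *Sod2* and *Sdha* encode mitochondrial proteins, for coenzyme Q synthesis, superoxide removal and complex II, and *Sdha* averaged 612 CPM in controls, 320 CPM in moderate and 154 CPM in severe muscle. The 12 mice fall into groups that differ in most genes, so such values are common and are given as a description of likeness only.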

How the data were processed

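Gastrocnemius poly(A) RNA of 12 mice was sequenced as 50-base single-end reads. The authors mapped trimmed reads to a merged mm10 annotation with RSEM 1.2.4 calling Bowtie, and the reads left over with TopHat2 2.0.8b. They deposited RSEM expected counts per gene, without normalization, and a TPM table whose columns share the same sum, so it holds no TMM factor. RSEM divides reads that match several genes. *Sqstm1*, *Map1lc3b*, *Bnip3* and *Becn1* had values that were not whole in all 12 libraries, and the other 6 genes only whole values. On the opposite strand, 17.3%, 0.772%, 22.3% and 43.9% of the exonic bases of those 4 genes overlap another gene, as do 28.3% of those of *Gabarapl1*, whose values were whole (GENCODE M21, GRCm38).

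Expected counts were rounded and tested in 1 fit of the 4 groups with edgeR 4.0.16 in R 4.3.3 (filterByExpr, TMM, robust quasi-likelihood F-test), with Benjamini-Hochberg adjustment over 16679 genes. A gene was called where the adjusted p was under 0.05 and the log2 fold change was 0.5 or more in size. SE were derived from the F statistic. The script was tested on simulated data in which few genes changed, up and down alike. That test does not bear on the scaling between libraries that differ in most genes. The mice of a group are separate animals, given 1 library each.

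The alternatives were median-of-ratios factors, library size alone or without the 20 most abundant genes, DESeq2 1.42.0, limma 3.58.1 on log2(TPM + 1) and log2(TPM + 0.1), other filters and thresholds, only the 2 groups compared, and each mouse left out. The 20 most abundant genes were ranked in the control libraries, and the same 20 were left out of every library. Library size without mitochondrial genome transcripts was added after seeing the data. The 7 scalings are TMM, median-of-ratios, DESeq2, log2(TPM + 1) and the 3 forms of library size.

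The members and gene lists were chosen with earlier results of these data known. Other pathway genes are named if among the 4 called higher or 4 called lower by size of change in a comparison, with no overlap between the groups. *Gabarap*, *Gabarapl2*, *Bnip3l* and *Pink1* are given as relatives or partners, and *Mitf*, *Tfe3*, *Ulk2* and *Nbr1*, used in family shares and ratios, were chosen after their values were seen. Counts over the pathway list leave out 1 gene, which is not reported here. Likeness used genes with a mean of at least 50 counts in every group. Sequences came from RefSeq on GRCm38.p6.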

Additional observations from a re-analysis of the deposited data

How the results depend on the processing

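Of 880 values of the 10 genes under alternatives, 742 kept their direction and side of the threshold, 32 gained a call, 30 lost one 26 changed sign with a call in either fit, and a further 50 changed sign with a call in neither. Scaling decided most of these. *Becn1* in moderate muscle turned to a log2 fold change of 0.57 on library size alone and 0.54 on library size without mitochondrial genome transcripts (an alternative chosen after seeing the data), and *Ulk1* to 0.081 and 0.048. In severe muscle, *Map1lc3b* turned to 0.10 on library size alone, 0.043 in log2(TPM + 1) and 0.044 in log2(TPM + 0.1). On library size alone, without mitochondrial transcripts, with log2(TPM + 1) and with log2(TPM + 0.1), in that order, the severe values turned to 0.42, 0.22, 0.23 and 0.24 for *Gabarapl1*, to 0.83, 0.64, 0.61 and 0.62 for *Becn1* and to 0.54, 0.35, 0.34 and 0.42 for *Ulk1*, and the severe against moderate values of *Atg5* to 0.67, 0.51, 0.59 and 0.63. Those of *Atg7* were 0.62, 0.61 and 0.68 on library size alone and in the 2 TPM fits.

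Members called higher and lower were, on library size alone, 3 and 2 in moderate, 4 and 2 in severe, and 2 and 2 between severe and moderate muscle. Without mitochondrial transcripts they were 3 and 2, 3 and 2, and 1 and 2. In both TPM fits they were 2 and 2, 3 and 2, and 2 and 2. Without the 20 most abundant genes, 2 were higher in each model. With no fold threshold, 2 were higher and 6 lower in moderate and 2 higher in severe muscle, and with a threshold of 1, 2 were lower between severe and moderate muscle. Other pathway genes called higher and lower were, in the same order of comparisons, 28 and 4, 48 and 5, and 30 and 4 on library size alone; 28 and 4, 42 and 6, and 18 and 5 without mitochondrial transcripts; 20 and 6, 22 and 13, and 8 and 7 without the 20 most abundant genes; 21 and 5, 42 and 5, and 23 and 4 in log2(TPM + 1); 25 and 5, 45 and 5, and 29 and 4 in log2(TPM + 0.1); and 4 and 4, 6 and 13, and 2 and 5 at a threshold of 1. With no fold threshold they were 16 and 27 in moderate and 8 and 34 between the models, with 39 lower in severe muscle, and with at least 10 counts in every library 3 were higher between the models. All genes called higher and lower were 4072 and 2830 in moderate and 5480 and 4648 in severe muscle, against 8760 and 752 and 12575 and 1071 on library size alone.

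With single mice left out, members called lower in moderate muscle ranged from 2 to 5, with 5 without control mouse 1349 (*Map1lc3b* and *Gabarapl1* gained a call), and pathway genes higher between the models from 3 to 5, with 3 without severe mouse 1047. DESeq2 kept all counts within 1.5 times. No paired analysis was possible because the groups share no replicate numbers. The 3 mice per group limit the precision. *Atg5* and *Atg7* gained calls in both models in the 2 TPM fits and under the 3 forms of library size.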
